A study of Mus musculus with 14 samples.

Results

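The Eph receptors and ephrins, the semaphorins with their plexin and neuropilin receptors, the Slits with their Robo receptors, and the netrins with their Unc5 receptors were followed through 14 RNA-seq libraries of mouse lower urinary tract epithelium. The families were chosen with earlier results of these data known, and their members were then found by gene symbol in the deposited count tables, which came to 68 of 55228 listed genes. They fell into 15 families, with 35 ligands and 33 receptors. The groups were bladder epithelium at E18.5 (n = 3, E standing for days of embryonic development), bladder epithelium at E14.5 (n = 4), urethral epithelium at E18.5 (n = 3) and urethral epithelium at E14.5 (n = 4). All embryos were wild-type, untreated CD-1 females, and the noon of the vaginal plug counted as E0.5. Each library pooled the females of a litter after trypsin treatment and peeling of the epithelium from the mesenchyme with forceps, so it held many animals and whatever cells stayed on the epithelium. The extraction notes give 3 litters for each kind of sample, and the 4 libraries per tissue at E14.5 were taken as 4 litters.

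These families are best known for steering axons and vessels, and they also act between epithelial cells. Ephrins sit on the cell surface and meet Eph receptor tyrosine kinases on the neighbouring cell, where signals run both ways and keep cell groups apart. In mice, ephrin-B2 with Ephb2 and Ephb3 is needed for the cloaca to divide and the urethra to close. Semaphorins are secreted (class 3) or membrane-bound (the other classes here) and act through plexins, with neuropilins as partners for most of class 3. Secreted Slits act through Robo receptors, a pair that places the ureteric bud in the mouse kidney, and netrins act through Unc5 proteins, Dcc and neogenin.

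Among the ephrins, Efna1, Efna3 and Efna4 lie side by side on chromosome 3 of GRCm38, all on the minus strand. The file's gene models place 10425 bases and no other gene between Efna3 and Efna4, and 32757 bases and 1 gene between Efna1 and Efna3. The 3 neighbours are shown because Efna3 and Efna4 were lower in bladder than in urethra at both stages, while Efna1 was lower at E18.5 alone (values below). The 250 bases before each gene's RefSeq start (GRCm38.p6) are printed 5′ to 3′ on the gene's strand, with capitals marking the GC box GGGCGG, read on either strand. They span chr3:89338029-89338278 for Efna4, chr3:89322940-89323189 for Efna3 and chr3:89280952-89281201 for Efna1. The file's gene models start further upstream for Efna1, so that most of its window lies inside that model, and slightly upstream for Efna3.
Efna4: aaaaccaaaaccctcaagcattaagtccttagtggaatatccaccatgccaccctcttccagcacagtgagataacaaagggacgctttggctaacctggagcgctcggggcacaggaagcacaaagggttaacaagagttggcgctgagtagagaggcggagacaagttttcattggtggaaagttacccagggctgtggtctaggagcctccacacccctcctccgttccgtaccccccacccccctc
Efna3: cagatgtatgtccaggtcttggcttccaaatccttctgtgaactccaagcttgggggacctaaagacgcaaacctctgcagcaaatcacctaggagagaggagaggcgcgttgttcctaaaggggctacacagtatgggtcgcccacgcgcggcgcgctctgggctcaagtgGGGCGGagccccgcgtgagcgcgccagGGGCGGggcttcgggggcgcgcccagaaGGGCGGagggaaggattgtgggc
Efna1: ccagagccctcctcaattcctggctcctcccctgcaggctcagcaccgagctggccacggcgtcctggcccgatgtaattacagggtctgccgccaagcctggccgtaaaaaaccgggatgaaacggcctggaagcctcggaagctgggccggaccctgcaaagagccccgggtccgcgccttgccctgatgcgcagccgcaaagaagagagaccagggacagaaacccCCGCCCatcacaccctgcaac
The window of Efna3 holds 3 GC boxes, that of Efna1 holds 1 and that of Efna4 holds none. None of the 3 windows holds a TATA box (TATAAA, either strand). Of all 32851 mouse promoters in the RefSeq table, windows of this length hold a GC box in 32.7% and a TATA box in 12.4%. For the 75 windows of the 59 members that matched the table, the shares were 70.7% and 2.67%. These are matches of letters and say nothing of binding.

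Library totals ran from 21101269 to 36810672 counts. Levels are in CPM, a gene's counts scaled to a common library total with library sizes adjusted by TMM, and differences as log2 fold changes of edgeR's quasi-likelihood test with Benjamini-Hochberg adjustment over all genes tested. A difference passed at an adjusted p under 0.05. The 12 pan-epithelial markers, all detected in every group, summed to 8898 to 12910 CPM in bladder at E18.5, 9968 to 11470 in bladder at E14.5, 8098 to 9853 in urethra at E18.5 and 3424 to 7205 in urethra at E14.5. RNA of other cells was present too, with no listed marker at 0 counts in any group. The 15 mesenchyme markers summed to 21040 to 32520 CPM in bladder at E18.5, 999.3 to 4608 in bladder at E14.5, 4839 to 5913 in urethra at E18.5 and 2404 to 6586 in urethra at E14.5. They exceeded the pan-epithelial sum in all 3 bladder libraries of E18.5 and in urethra E14.5 replicates 3 and 4. Sums over different genes do not give the share of RNA from either kind of cell. With such markers in every group, the label of epithelium does not hold for all of the RNA in any group. In the same order of groups, the 10 endothelial markers summed to 319 to 464.5, 31.73 to 139.8, 71.12 to 113.4 and 31.8 to 237.6 CPM, and the 12 neuron and Schwann cell markers to 209.1 to 342.4, 407.2 to 428, 309.6 to 529.8 and 308.4 to 420.6 CPM. Erbb3, which epithelia also express, made up 284.3 to 355.8 CPM of the neuron and Schwann cell sum in bladder at E14.5. In RNA from a whole tissue, fewer cells of a type and less RNA per cell cannot be told apart.

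All 68 members had at least 1 count, and 65 passed the filter on low counts over the 14 libraries. Together they took 0.39 to 0.3955% of the counts in bladder at E18.5, 0.4179 to 0.4702% in bladder at E14.5, 0.5111 to 0.5905% in urethra at E18.5 and 0.6074 to 0.6598% in urethra at E14.5. The 4 groups did not overlap in this share. Per kilobase of the listed gene length, 7 members averaged at least 30 CPM per kb over the group means, 21 at least 10 and 55 at least 1. Plxnb2, the plexin bound by Sema4c, was the most abundant per kb, at 77.6 CPM per kb in bladder at E18.5, 116 in bladder at E14.5, 81.8 in urethra at E18.5 and 64 in urethra at E14.5. The transmembrane ligand Efnb2 came next, with group means of 43.6 to 106 CPM per kb. The secreted ligands Sema3f, which binds neuropilin 2, and Sema3c, which binds both neuropilins, averaged 53 and 50.1 CPM per kb over the groups. In the other families the most abundant members were Epha1, Ephb4, Efna1, Sema4a, Unc5b and Slit3 (13.1 to 35.8 CPM per kb), and Nrp2, Robo1, Sema5a, Sema6c, Ntn3 and Sema7a (1.68 to 7.73 CPM per kb).

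**Figure D1:**
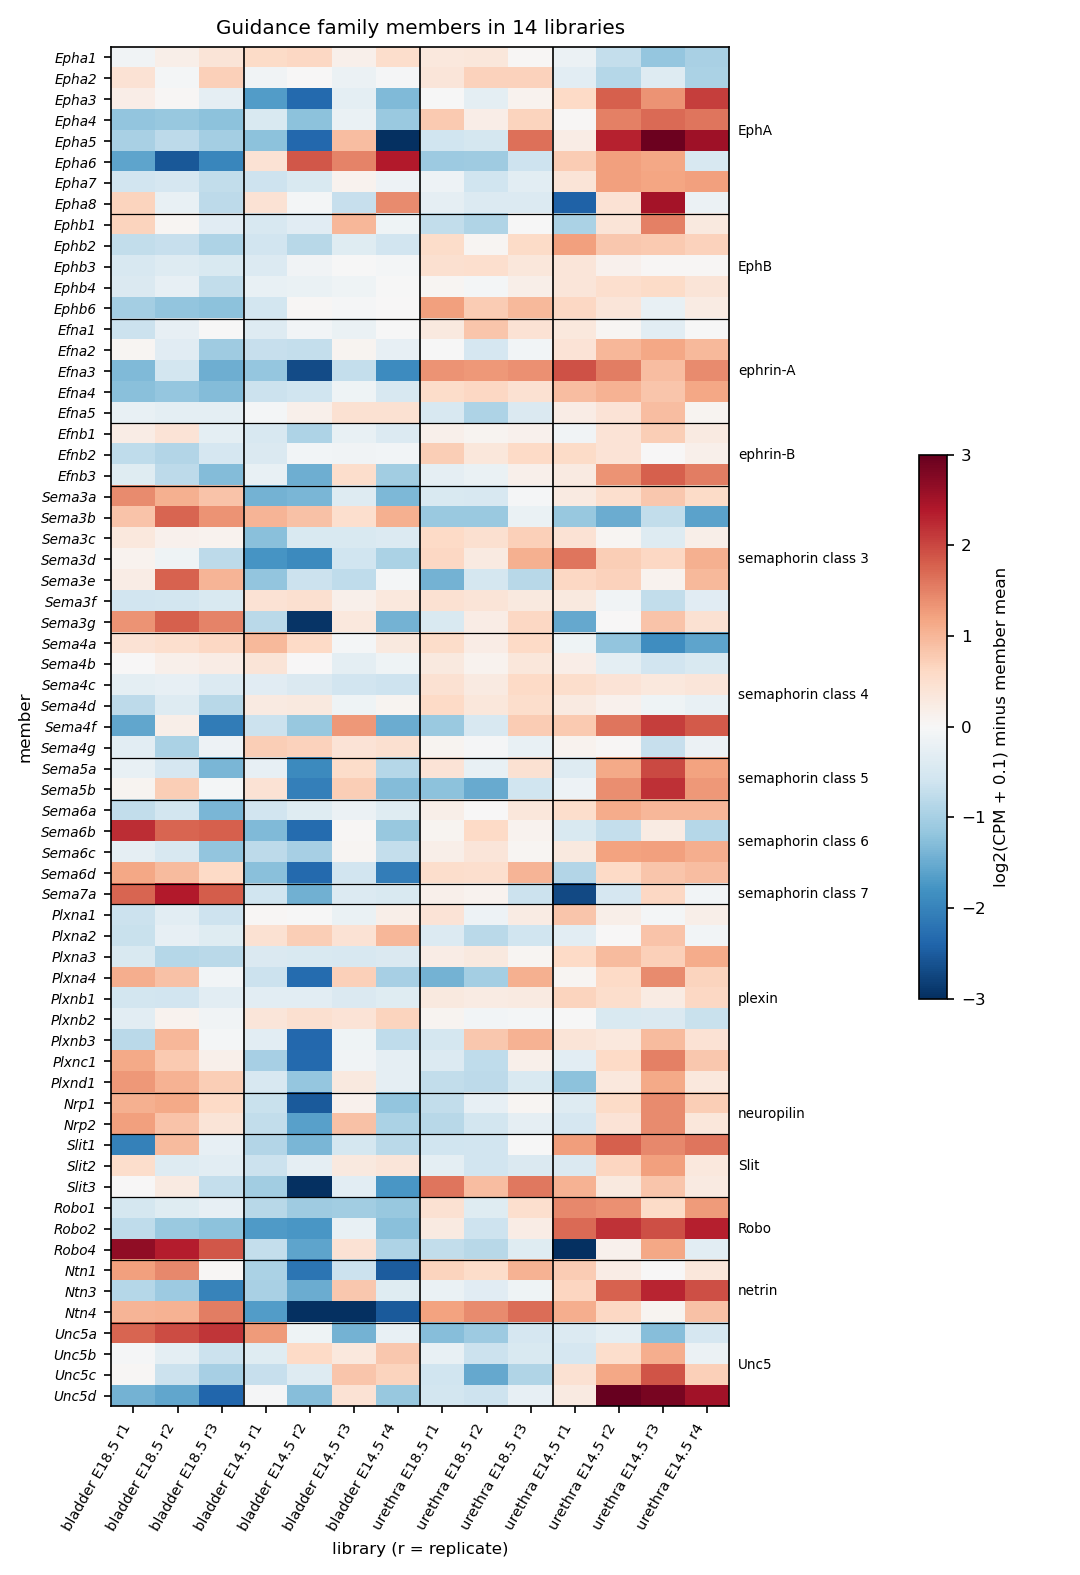
Heat map of the 65 members that passed the filter (rows, grouped by family) in the 14 libraries (columns: bladder E18.5, bladder E14.5, urethra E18.5, urethra E14.5). Colour is log2(CPM + 0.1) minus the mean of that member over the libraries. Many rows are red in the 4 urethral libraries of E14.5, and Sema3a, Sema3g, Sema6b, Sema7a, Robo4 and Unc5a are red in the 3 bladder libraries of E18.5.

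At E14.5 many more of these genes were lower than higher in the bladder, compared with the urethra. Of 65 members tested, 32 were lower in bladder and 6 were higher, 58.5% in all, where 43.8% of the 16697 genes tested passed (20.7% lower and 23.1% higher). Their median log2 fold change was −0.95, against −0.04 over all genes. Ligands (19 of 34 lower, 3 higher) and receptors (13 of 31 lower, 3 higher) both took part. The summed mesenchyme markers overlapped between the tissues at this stage. Among the single markers only Twist1 did not, as no bladder library exceeded 7.775 CPM and no urethral library fell below 13.59 CPM. Of the 15 markers 4 passed, all lower in bladder, so the overlap of the sums does not show equal mesenchyme content. The median log2 fold change was −1.005 over the mesenchyme markers, −1.33 over the neuron and Schwann cell markers, −1.07 over the immune markers and −0.69 over the endothelial markers. With a mesenchyme score (the markers' mean log2 CPM) as a term in the fit, the members' median was −0.46. The pan-epithelial markers were higher in bladder in 10 of 12, and scaling the libraries on 7 of these genes moved the median of all genes to −1.02 and gave 50 members lower and 2 higher. Of all 16697 genes tested, 11348 were lower and 510 higher under that scaling.

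Robo1 and Robo2 were lower in bladder at E14.5, with no overlap between the tissues. Robo2 measured 16.8, 16.1, 46.6 and 23.0 CPM in bladder libraries, against 178, 245, 207 and 274 CPM in urethral libraries. Its log2 fold change was −3.17 ± 0.37 (approximate SE worked back from the F test, edgeR adjusted p = 0.000651). Robo1, its neighbour 845744 bases away on chromosome 16, stood at 57.5, 48.7, 50.01 and 46.2 CPM in bladder, against 278, 264, 151 and 248 CPM in urethra. The bladder libraries lay close together, and the log2 fold change was −2.25 ± 0.18 (adjusted p = 0.000289). Among their ligands, Slit3 had 27.8, 6.83, 45.9 and 16.9 CPM in bladder, against 118, 70.4, 102 and 69.2 CPM in urethra, a log2 fold change of −1.92 ± 0.51 (adjusted p = 0.0173). Without bladder replicate 4 it no longer passed (adjusted p = 0.0517). Slit1 was also lower in bladder (−3.15), at levels of at most 0.184 CPM in bladder and at least 0.88 CPM in urethra. Slit2 (−0.60 ± 0.36, adjusted p = 0.202) and the endothelial receptor Robo4 (−0.65 ± 0.79, adjusted p = 0.528) did not pass, and their libraries overlapped.

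All 3 netrins tested were lower in bladder at E14.5, and Ntn4 alone also passed with the mesenchyme score as a term (Ntn1 adjusted p = 0.0854, Ntn3 adjusted p = 0.183). Ntn4, a netrin that binds laminins in basement membranes, measured 1.05, 0.341, 0.276 and 0.538 CPM in bladder libraries, against 7.74, 5.53, 3.77 and 6.69 CPM in urethral libraries. The log2 fold change was −3.43 ± 0.46 (adjusted p = 0.000945), the largest size among the members with at least 5 CPM in the higher group. Ntn1, the founding netrin of the vertebrate midline, had 1.21 to 4.65 CPM in bladder, against 7.34 to 12.4 CPM in urethra (−1.79, adjusted p = 0.0133). Ntn3 was lower as well (−2.06, adjusted p = 0.0168), with 1 bladder library at 19.5 CPM above the lowest urethral library at 17.2 CPM. Without that bladder library, replicate 3, its log2 fold change was −2.70. Of their receptors, Unc5d was lower (−3.26, adjusted p = 0.00951) and reached at most 0.598 CPM in bladder and 4.43 CPM in urethra. The other 3 did not pass, and Unc5b, the most abundant, had a log2 fold change of −0.00 ± 0.37.

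Of the ephrins and Eph receptors tested, 6 of 8 ligands and 7 of 13 receptors were lower in bladder at E14.5, and 2 receptors were higher. Efna3, a lipid-anchored ligand, measured 2.79, 0.911, 3.82 and 1.65 CPM in bladder, against 24.4, 18.6, 12.2 and 17.1 CPM in urethra (−3.02 ± 0.44, adjusted p = 0.00141). Efna4 measured 13.9, 14.5, 20.1 and 15.6 CPM in bladder, against 41.6, 44.9, 38.8 and 49.3 CPM in urethra (−1.48 ± 0.14, adjusted p = 0.000374). The groups did not overlap for either gene. Each shares part of its exons with a gene on the opposite strand (344 bases of Efna3 with Gm15998, and 168 bases of Efna4 with 4731419I09Rik), and those genes held 53 and 227 counts over the libraries, against 3734 and 9717 for Efna3 and Efna4. Efna1, the third of the cluster, overlapped between the tissues (46.3 to 60.3 CPM in bladder, against 48.6 to 76.3 CPM in urethra, adjusted p = 0.208). Efna2 and the 3 transmembrane ephrins were lower by 0.50 to 1.72 on the log2 scale, with the smallest difference for the abundant Efnb2. Among the receptors, Epha4, which binds ligands of both classes, measured 33.9, 19.7, 40.2 and 21.3 CPM in bladder and 47.9, 132, 151 and 142 CPM in urethra (−2.07 ± 0.39, adjusted p = 0.00401). Epha3 had 6.24, 3.93, 16.3 and 8.0 CPM in bladder, against 30.3, 69.8, 51.0 and 84.2 CPM in urethra (−2.81 ± 0.49, adjusted p = 0.00275). For both, the lowest urethral library was replicate 1, and every urethral value still lay above every bladder value.

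The other Eph receptors that were lower in bladder were 3 EphB receptors, Epha5 and Epha7. Ephb2, the receptor of ephrin-B2 named above, had 39.3 to 53.7 CPM in bladder, against 113 to 163 CPM in urethra (−1.5 ± 0.14, adjusted p = 0.000374). Epha7 (−1.33) and Ephb4 (−0.62) also passed, and Ephb3 (−0.32) passed at an adjusted p of 0.0433 that was lost in 7 of 8 leave-outs. Epha5 measured 1.18, 0.484, 5.57 and 0.235 CPM in bladder and 3.39, 14.7, 22.8 and 17.2 CPM in urethra, with an overlap and a call (−3.02, adjusted p = 0.0362) lost in 6 of 8 leave-outs. Its log2 fold change was −4.54 without bladder replicate 3.

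The 2 higher receptors were Epha1 and Epha2, both common in epithelia. Epha1 measured 195, 200, 146 and 188 CPM in bladder, against 117, 79.4, 58.4 and 66.2 CPM in urethra (1.15 ± 0.21, adjusted p = 0.0034). The highest urethral library was replicate 1, which had the most pan-epithelial marker RNA of the 4, and the part of that RNA was not tested. Epha2 had 37.5 to 43.1 CPM in bladder, against 22.1 to 34.0 CPM in urethra (0.50 ± 0.15, adjusted p = 0.0288), a call that was lost in 5 of 8 leave-outs and a sign that turned under the pan-epithelial scaling (−0.47). On that scaling no EphA receptor passed in the higher direction, Epha1 included (adjusted p = 0.208). Part of the exons of Epha1, 6.01% of its length, overlaps Zyx on the opposite strand, and whether the counting used strand is not stated.

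Semaphorins went both ways at E14.5. In class 3, 4 of 7 were lower in bladder. Sema3d measured 19.4, 17.6, 43.4 and 34.0 CPM in bladder and 202, 111, 102 and 138 CPM in urethra (−2.30 ± 0.34, adjusted p = 0.00155). Sema3a, a ligand of neuropilin 1, and Sema3e, which binds plexin D1 directly, were lower by 1.65 and 1.28, and Sema3c by 0.73. The exception was Sema3b, with 68.7, 62.3, 48.5 and 72.0 CPM in bladder, against 15.4, 12.01, 20.5 and 11.1 CPM in urethra. Its log2 fold change of 2.06 ± 0.22 (adjusted p = 0.000501) was the largest of the 6 members higher in bladder and held under the pan-epithelial scaling (1.04, adjusted p = 0.0115). In class 4, Sema4a measured 194, 151, 95.6 and 122 CPM in bladder and 90.9, 43.9, 27.4 and 33.1 CPM in urethra (1.495 ± 0.39, adjusted p = 0.0151). Sema4g was higher in bladder by 0.71 and Sema4c lower by 0.92, and the sign of Sema4g turned under the pan-epithelial scaling (−0.22). Class 6 held 3 lower members, Sema6a, Sema6c and Sema6d (−1.32 to −1.96), while Sema5a, Sema5b and Sema7a did not pass.

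Of 9 plexins tested at E14.5, 1 was higher and 3 were lower in bladder, 44.4% in all, near the 43.8% of all genes. Plxnb2 measured 828, 896, 856 and 1015 CPM in bladder, against 639, 463, 470 and 404 CPM in urethra (0.83 ± 0.14, adjusted p = 0.00242), but turned to −0.10 under the pan-epithelial scaling. Plxnb1, the receptor of Sema4d, had 163 to 177 CPM in bladder, against 262 to 349 CPM in urethra (−0.92 ± 0.09, adjusted p = 0.000451). Plxna3 was lower by 1.34 and Plxnc1 by 1.56. Both neuropilins overlapped between the tissues and did not pass, with Nrp1 at an adjusted p of 0.0549. In bladder, 37 of 65 members were highest in replicate 3, the library with the most mesenchyme marker RNA, where 31.1% of the 15361 genes averaging at least 1 CPM were highest. With the mesenchyme score as a term, 24 members still passed, 3 higher and 21 lower, all of them among the 38. Those 24 include Robo1 (−2.33), Robo2 (−2.59), Ntn4 (−3.43), Efna3 (−2.61), Efna4 (−1.31), Ephb2 (−1.45), Sema3b (2.03), Epha1 (0.79) and Plxnb2 (0.66). The 14 that no longer passed were Epha2, Epha5, Epha7, Ephb3, Efnb1, Efnb3, Sema4a, Sema4g, Sema6d, Plxnc1, Slit3, Ntn1, Ntn3 and Unc5d, with adjusted p of 0.0505 to 0.747. Of the 38 calls, 30 were kept in every leave-out of a library. The other 8 were Epha2, Epha5, Ephb3, Efnb2, Efnb3, Sema3c, Plxnc1 and Slit3, with adjusted p of up to 0.122.

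**Figure D2:**
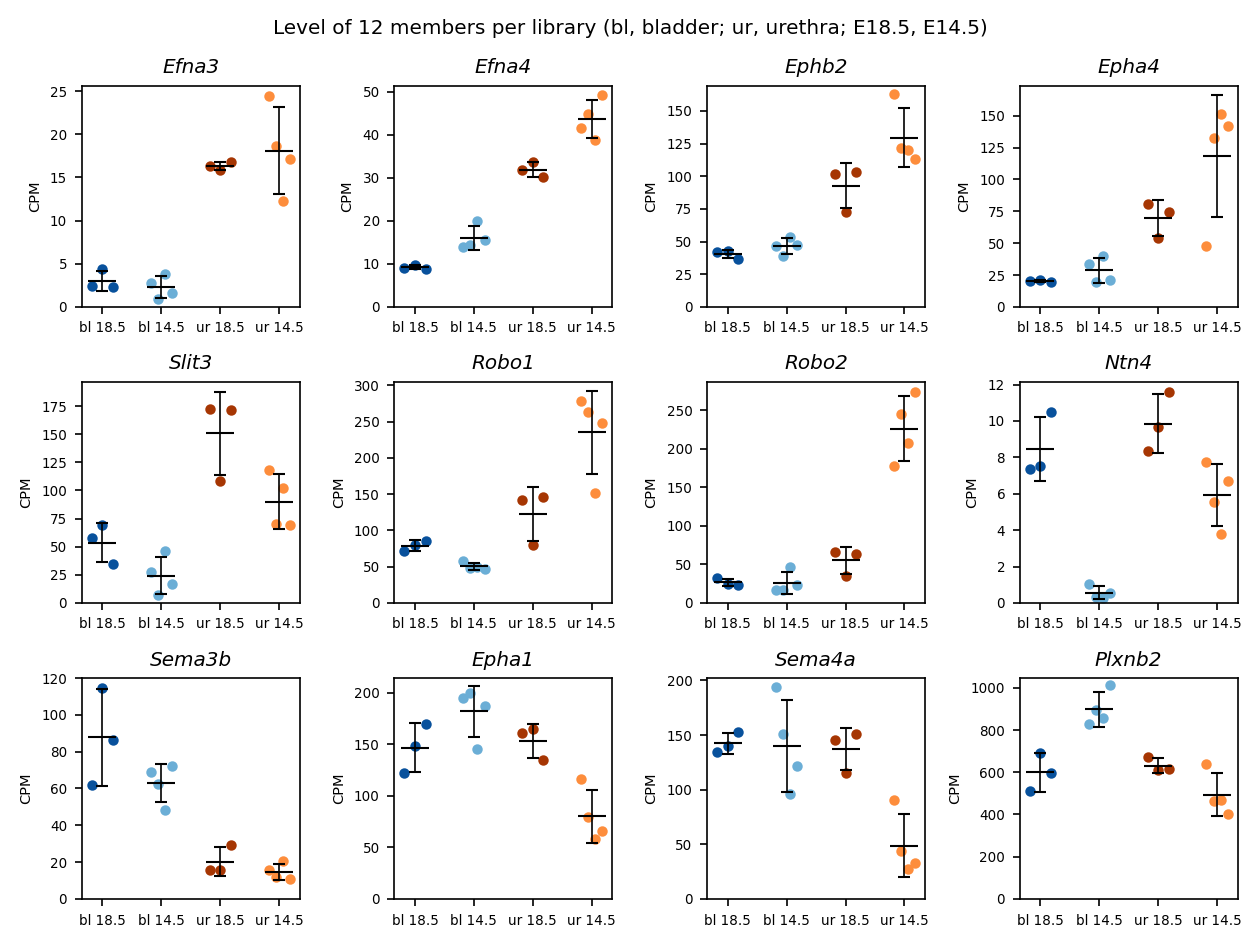
CPM of 12 members in each library (points), with the group mean (line) and SD (bars), for bladder (bl) and urethra (ur) at E18.5 and E14.5. Every bladder point lies below every urethral point at both stages for Efna3, Efna4 and Ephb2, while Sema3b has the reverse order, with 48.5 CPM or more in bladder and 29.5 CPM or less in urethra.

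At E18.5 the members no longer leaned one way so strongly. Of 62 tested, 25 were lower and 13 were higher in bladder than in urethra, 61.3% in all, where 37.9% of 17513 genes passed (18.6% lower and 19.3% higher). The median log2 fold change was −0.26, against −0.03 over all genes. Of the 13 higher members 7 were semaphorins and 4 their receptors. Those semaphorins were 4 of the 7 tested in class 3, 1 of 2 in class 5, 1 of 4 in class 6 and Sema7a. Other semaphorins of classes 3 to 6 were lower (3 of 7, 2 of 6, 1 of 2 and 2 of 4). The lower members also included 5 of 8 ephrins and 4 of 5 EphB receptors. At this stage 12 of 15 mesenchyme, 10 of 10 smooth muscle, 10 of 10 endothelial and 9 of 12 immune markers were higher in bladder. The summed mesenchyme markers did not overlap between the tissues, so tissue and mesenchyme content cannot be told apart at E18.5. With the mesenchyme score as a term, edgeR passed 0 of 62 members (18 at an unadjusted p under 0.05) and 5 of all genes, and no other tool was run with that term.

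Robo4, a receptor of endothelial cells, had the largest difference among the higher members. Robo4 measured 32.3, 25.9 and 18.54 CPM in bladder, against 2.95, 2.76 and 3.86 CPM in urethra (2.94 ± 0.25, adjusted p = 6.27e-05). The summed endothelial markers were 464.5, 408.7 and 319 CPM in the same bladder libraries and 71.92, 71.12 and 113.4 CPM in the urethral libraries, and their part in the result was not tested. Unc5a, a netrin receptor, measured 43.8, 50.9 and 58.3 CPM in bladder, against 5.30, 6.08 and 9.22 CPM in urethra (2.83 ± 0.23, adjusted p = 5.73e-05). Within bladder, Unc5a was highest in replicate 3, which held the least mesenchyme marker RNA of the 3, and Robo4 was lowest there. What cell content had to do with these orders was not tested.

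Class 3 semaphorins passed in 7 of 7 cases at E18.5, with 4 higher and 3 lower. Sema3e had 19.7, 57.2 and 34.1 CPM in bladder, against 6.24, 11.6 and 9.36 CPM in urethra (1.97 ± 0.39, adjusted p = 0.00533). Sema3a had 88.8, 70.0 and 60.0 CPM in bladder, against 24.3, 23.6 and 32.4 CPM in urethra (1.39 ± 0.18, adjusted p = 0.000512). Both had been lower in bladder at E14.5. Sema3b was higher again, with 61.8, 115 and 86.6 CPM in bladder and 15.7, 15.6 and 29.5 CPM in urethra (2.05 ± 0.31, adjusted p = 0.00162), and was the only member higher in bladder at both stages. Sema3g was higher by 1.32, at 7.37 to 10.1 CPM in bladder, against 2.05 to 4.42 CPM in urethra. The lower ones were Sema3c, Sema3d and Sema3f, and Sema3f measured 177, 180 and 192 CPM in bladder against 362, 345 and 324 CPM in urethra (−0.97 ± 0.10, adjusted p = 0.000209).

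Both neuropilins and Plxnd1 were higher in bladder at E18.5. Plxnd1, the receptor of Sema3e, measured 121, 102 and 81.8 CPM in bladder, against 29.3, 28.4 and 35.9 CPM in urethra (1.64 ± 0.16, adjusted p = 0.000132). Nrp1 had 56.4, 59.8 and 40.8 CPM in bladder and 16.3, 22.7 and 28.2 CPM in urethra (1.16 ± 0.21, adjusted p = 0.00325). Nrp2 was higher by 1.33, at 98.9 to 179 CPM in bladder, against 42.8 to 63.4 CPM in urethra. Plxnd1 and Nrp2 ran in the order of the mesenchyme markers over the 3 bladder libraries, replicate 1 above 2 above 3, and Nrp1 did not. Of the 15361 genes averaging at least 1 CPM, 37.2% were highest in replicate 1 and 42.3% lowest in replicate 3. The part of mesenchyme in these orders was not tested. With the mesenchyme score as a term Nrp1 (−0.29), Nrp2 (−0.41) and Plxnc1 (−0.91) turned negative. Plxna1, Plxna3 and Plxnb1 were lower by 0.76 to 0.95. On the pan-epithelial scaling no plexin was lower, and the members split into 16 higher and 10 lower. All 17513 genes tested split into 5801 higher and 1304 lower on it.

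Among the other semaphorins, Sema7a, a lipid-anchored ligand of integrins and plexin C1, measured 11.6, 18.3 and 12.3 CPM in bladder, against 3.80, 3.64 and 2.12 CPM in urethra (2.09 ± 0.29, adjusted p = 0.000714). Its receptor Plxnc1 was higher by 0.99, a call lost in 4 of 6 leave-outs. Sema6b had 13.3, 9.63 and 10.03 CPM in bladder and 2.99, 4.26 and 3.05 CPM in urethra (1.62 ± 0.24, adjusted p = 0.00107). Sema4d, the ligand of plexin B1, was lower, with 17.8, 23.5 and 17.5 CPM in bladder and 47.3, 39.0 and 44.4 CPM in urethra (−1.21 ± 0.15, adjusted p = 0.000419). Sema4c, Sema5a, Sema6a and Sema6c were lower too, by 0.82 to 1.09, and Sema5b was higher by 1.34.

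Ephrin and EphB genes were on the low side in bladder at E18.5. Efna3 measured 2.47, 4.34 and 2.26 CPM in bladder, against 16.3, 15.8 and 16.7 CPM in urethra (−2.48 ± 0.26, adjusted p = 0.000187). Efna4 measured 9.13, 9.82 and 8.80 CPM in bladder, against 31.9, 33.7 and 30.1 CPM in urethra (−1.84 ± 0.13, adjusted p = 2.83e-05). Efna1, with 1 GC box in the window printed above, now passed too (−0.87 ± 0.19, adjusted p = 0.00827), at 38.7 to 60.2 CPM in bladder, against 74.9 to 108 CPM in urethra. Efnb2 had 289, 264 and 345 CPM in bladder and 823, 623 and 738 CPM in urethra (−1.34 ± 0.15, adjusted p = 0.000297). Efnb3 was lower by 0.74, a call lost in 5 of 6 leave-outs, and Efna2, Efna5 and Efnb1 did not pass.

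Of the EphB receptors 4 of 5 were lower. Ephb6, which lacks kinase activity, measured 22.1, 19.9 and 19.2 CPM in bladder, against 106, 76.9 and 88.2 CPM in urethra, and its adjusted p of 2.14e-05 was the smallest of any member at this stage (−2.21 ± 0.14). Ephb2 had 42.1, 42.8 and 36.9 CPM in bladder and 102, 72.9 and 103 CPM in urethra (−1.25 ± 0.15, adjusted p = 0.000377). Ephb3 and Ephb4 were lower by 0.94 and 0.58. Under the pan-epithelial scaling 3 EphB receptors were lower and 1, Ephb1, was higher. Epha4 was the only EphA receptor to pass, with 20.5, 21.1 and 19.8 CPM in bladder and 80.6, 53.7 and 74.3 CPM in urethra (−1.82 ± 0.16, adjusted p = 8.38e-05). Epha1 and Epha2, higher in bladder at E14.5, overlapped between the tissues at E18.5.

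Slit3 remained lower in bladder at E18.5, with 57.4, 69.2 and 34.5 CPM against 173, 109 and 171 CPM in urethra (−1.55 ± 0.27, adjusted p = 0.00304). Robo2 had 32.1, 25.1 and 23.1 CPM in bladder and 66.0, 35.5 and 63.8 CPM in urethra (−1.10, adjusted p = 0.00848). Robo1 overlapped between the tissues, and its call (−0.69, adjusted p = 0.0404) was lost in 5 of 6 leave-outs. Ntn3 was lower by 1.10 and was lost without urethral replicate 1 (adjusted p = 0.0504). Ntn4 and Ntn1, both lower in bladder at E14.5, had log2 fold changes of −0.28 ± 0.23 and 0.18 ± 0.33 and did not pass. Of the 38 calls at E18.5, 30 were kept in every leave-out. The 8 others were Efnb3, Ntn3, Plxnc1, Robo1, Sema3c, Sema5a, Sema5b and Sema6c, with adjusted p of up to 0.136.

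**Figure D3:**
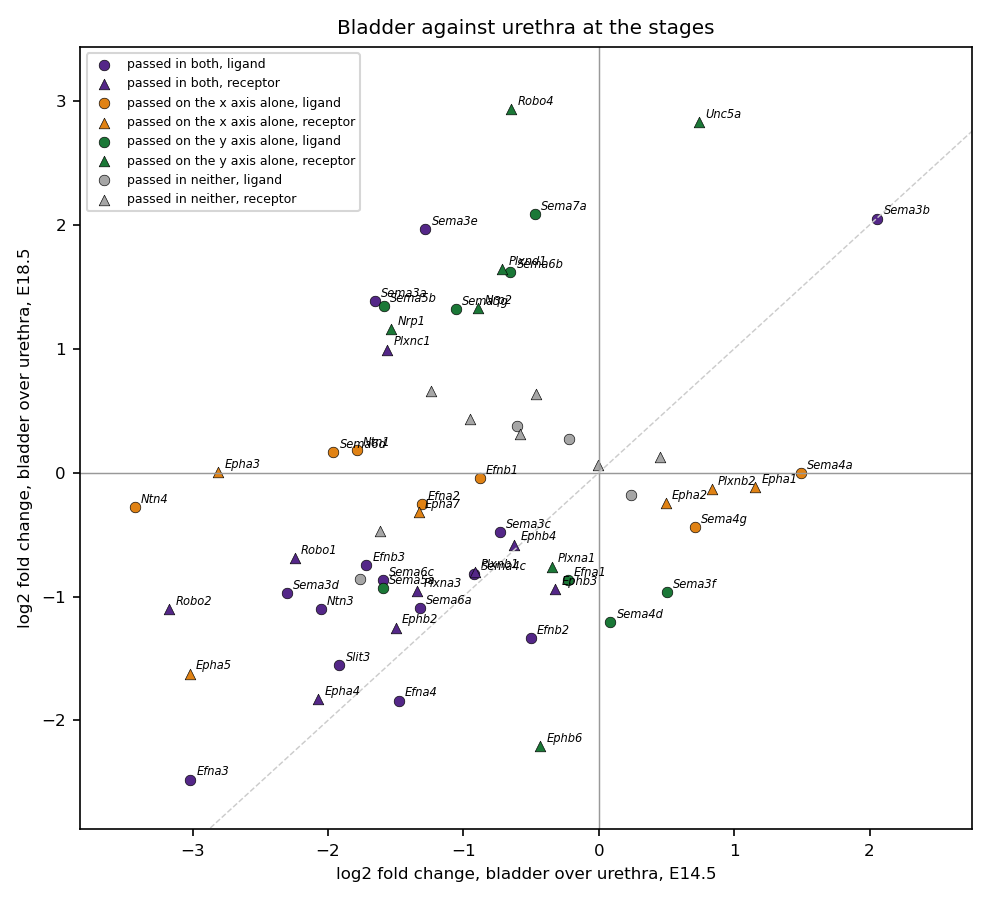
Log2 fold change of bladder over urethra at E14.5 (x) and at E18.5 (y) for the 62 members tested at both stages. Circles are ligands and triangles receptors, the colour gives the stage or stages at which the test was passed, and the dashed line marks equal values. At both stages 19 members were lower in bladder and 1, Sema3b, was higher, while Sema3a, Sema3e and Plxnc1 lie in the upper left, lower at E14.5 and higher at E18.5.

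Across the 2 stages, 19 members were lower in bladder both times. They are Efna3, Efna4, Efnb2, Efnb3, Ephb2, Ephb3, Ephb4, Epha4, Sema3c, Sema3d, Sema4c, Sema6a, Sema6c, Plxna3, Plxnb1, Slit3, Robo1, Robo2 and Ntn3. The stages share no library. How many of all genes were lower both times was not counted, so whether 19 is an unusual number was not tested. Of all genes, 20.7% were lower in bladder in the E14.5 test and 18.6% in the E18.5 test. On the pan-epithelial scaling 7 of the 19 were still called lower at E18.5 (Epha4, Ephb2, Ephb3, Efna3, Efna4, Efnb2 and Slit3), and with the mesenchyme score as a term none was. A further 5 members were higher at E14.5 and did not pass at E18.5, 8 were lower at E14.5 and did not pass at E18.5, and 15 passed at E18.5 without having passed at E14.5.

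Between the stages, the members changed in both directions in the bladder. Of 65 members, 18 were higher and 13 lower at E18.5 than at E14.5, 47.7% in all, where 40.2% of 18286 genes passed (19.9% up and 20.4% down). The median log2 fold change was 0.02 and that of all genes −0.01 (E18.5 over E14.5), and with the mesenchyme score as a term the members' median was −0.55. Ntn4 rose most, to 7.37, 7.50 and 10.48 CPM at E18.5, against 1.05, 0.341, 0.276 and 0.538 CPM at E14.5 (3.90 ± 0.40, adjusted p = 1.84e-05). With that term 9 members passed, 1 up and 8 down, and 3 of the 31 were among them: Ntn4 (4.18, adjusted p = 0.0277), Efna4 (−1.14) and, with its sign turned, Nrp1 (−1.44). Ntn1 rose to 17.1, 19.9 and 7.43 CPM, against 3.75, 1.51, 4.65 and 1.21 CPM at E14.5 (2.43 ± 0.45, adjusted p = 0.000934).

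Semaphorins made up 8 of the 18 that rose in bladder. They were 5 of the 7 tested in class 3, 2 of 4 in class 6 and Sema7a, where 19.9% of all genes rose. Of the 6 tested in class 4 and the 2 in class 5 none rose. Sema6b rose to 9.63 to 13.3 CPM, against 0.484 to 2.85 CPM at E14.5 (2.99 ± 0.47, adjusted p = 0.000305), and by 3.58 without bladder E14.5 replicate 3. Sema7a rose to 11.6 to 18.3 CPM, against 1.20 to 2.53 CPM (2.74 ± 0.55, adjusted p = 0.00168). Sema3a rose to 60.0 to 88.8 CPM, against 12.3 to 25.4 CPM (2.204 ± 0.25, adjusted p = 4.01e-05), and this call held in every leave-out. Sema3g (2.43 ± 0.66, adjusted p = 0.0105) and Sema6d (2.34 ± 0.44, adjusted p = 0.00109) rose too, and turned to −1.44 and −0.19 with the mesenchyme score. Sema3g rose by 3.16 without bladder E14.5 replicate 3. Sema3c (0.79), Sema3d (1.00) and Sema3e (1.75) completed the 8.

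Receptors that rose in bladder were Robo4 (2.89 ± 0.69, adjusted p = 0.00503), Unc5a, Nrp1, Plxnc1, Plxnd1, Epha3 and Robo1, and the ligand Efnb1 rose by 0.63. Robo4 reached 18.54 to 32.3 CPM, against 1.59 to 6.76 CPM at E14.5, and turned to −0.55 with the mesenchyme score. Plxnc1 (−1.33), Plxnd1 (−0.96), Epha3 (−0.85) and Efnb1 (−0.50) turned negative with it too. Unc5a rose by 1.77, and by 2.44 without bladder E14.5 replicate 1. The summed mesenchyme markers did not overlap between the stages (21040 to 32520 CPM at E18.5 and 999.3 to 4608 CPM at E14.5). Stage and mesenchyme content therefore cannot be told apart in bladder.

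Plxnb2 and Efnb2, the most abundant members per kb, were among the 13 that fell in bladder. Plxna2 fell to 60.2, 81.3 and 74.9 CPM, against 133, 161, 129 and 191 CPM at E14.5 (−1.09 ± 0.25, adjusted p = 0.00395). Ephb6 fell to 19.2 to 22.1 CPM, against 30.9 to 46.1 CPM (−1.02 ± 0.19, adjusted p = 0.00108). Sema4g (−1.02), Sema3f (−0.89), Sema4d (−0.80), Efna4 (−0.79), Plxnb2 (−0.58) and Efnb2 (−0.54) also fell with no overlap between the stages. Smaller falls that passed were those of Ephb3, Ephb4, Efna5 and Plxna1, and Epha6 fell by 5.17 at levels of at most 0.0951 CPM at E18.5 and at most 2.92 CPM at E14.5. On the pan-epithelial scaling 23 members rose in bladder and 1 fell, where 5698 of all 18286 genes rose and 298 fell. Of the 31 calls 21 were kept in every leave-out, and the count ran from 22 to 34.

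In the urethra more members fell than rose with stage. Of 65, 22 fell, 9 rose and 34 did not pass, with a median log2 fold change of −0.66 against 0.00 for all genes, where 32.9% of 18286 genes passed (15.7% down and 17.2% up). Robo2 fell to 66.0, 35.5 and 63.8 CPM, against 178, 245, 207 and 274 CPM at E14.5 (−2.04 ± 0.36, adjusted p = 0.0014). Robo1 fell to 141, 79.6 and 146 CPM, against 278, 264, 151 and 248 CPM (−0.94 ± 0.22, adjusted p = 0.00681). Unc5c, a netrin receptor, fell to 29.7, 15.7 and 24.4 CPM, against 62.2, 101, 167 and 75.0 CPM (−2.12 ± 0.45, adjusted p = 0.00408). Ntn3 fell to 9.57, 8.70 and 10.03 CPM, against 17.2, 37.7, 53.9 and 42.5 CPM (−2.00 ± 0.52, adjusted p = 0.0113). The stages did not overlap for any of these 4 genes, and for Robo1 the nearest libraries, at 146 and 151 CPM, almost met.

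Of the other falls in the urethra, Sema5b fell to 1.12 to 2.18 CPM, against 2.99 to 15.6 CPM (−2.53 ± 0.70, adjusted p = 0.0154). Epha3 fell to 16.4 to 21.6 CPM, against 30.3 to 84.2 CPM (−1.61 ± 0.42, adjusted p = 0.0119), and Epha7 to 41.8 to 57.5 CPM, against 82.7 to 148 CPM (−1.39 ± 0.22, adjusted p = 0.000754). Sema3e fell by 1.53, Efnb3 by 1.43, Efna2 by 1.10 and Efna5 by 1.05 on the log2 scale. Without urethra E18.5 replicate 2 the calls of Efnb3, Sema5b and Epha3 were lost (edgeR adjusted p = 0.0993, 0.0695 and 0.0554). That of Efnb3 was lost in several other leave-outs too. The others that fell were Efna4, Ephb2, Ephb4, Epha6, Sema3a, Sema6a, Sema6c, Plxna2, Plxna3, Slit1 and Unc5d. With the mesenchyme score as a term all 31 calls in the urethra were kept, among 42 of 65 members that passed, where 37.6% of all genes did. Of the 15 mesenchyme markers 3 passed with stage in urethra, 1 up and 2 down (median log2 fold change 0.29). The score averages markers that went both ways, so the part of cell content in these calls was not tested.

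The 9 members that rose in the urethra were 4 Eph receptors, 3 class 4 semaphorins, Sema3f and Efna1. Sema4a rose to 146, 116 and 151 CPM, against 90.9, 43.9, 27.4 and 33.1 CPM at E14.5 (1.49 ± 0.34, adjusted p = 0.00592). Epha2 rose to 54.8, 69.0 and 68.8 CPM, against 34.0, 23.4, 32.7 and 22.1 CPM (1.20 ± 0.18, adjusted p = 0.000644). Epha1 rose to 162, 165 and 135 CPM, against 117, 79.4, 58.4 and 66.2 CPM (0.94 ± 0.20, adjusted p = 0.00451). Ephb6 (0.72), Sema3f (0.55), Sema4b (0.51), Efna1 (0.51), Sema4d (0.47) and Ephb3 (0.29) rose less, and these 6 turned negative under the pan-epithelial scaling, where 43 members fell and 1 rose. Of all 18286 genes, 9794 fell and 965 rose under that scaling. The call was lost in 11 of 14 leave-outs for Sema4b and Ephb3, in 9 for Efna1, in 6 for Sema3f and in 5 for Sema4d. The pan-epithelial markers themselves summed to 8098 to 9853 CPM at E18.5, against 3424 to 7205 CPM at E14.5. Of the 31 calls 14 were kept in every leave-out, and the count fell to 20 without urethra E14.5 replicate 3, to 17 without urethra E18.5 replicate 1 and to 16 without urethra E18.5 replicate 2.

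**Figure D4:**
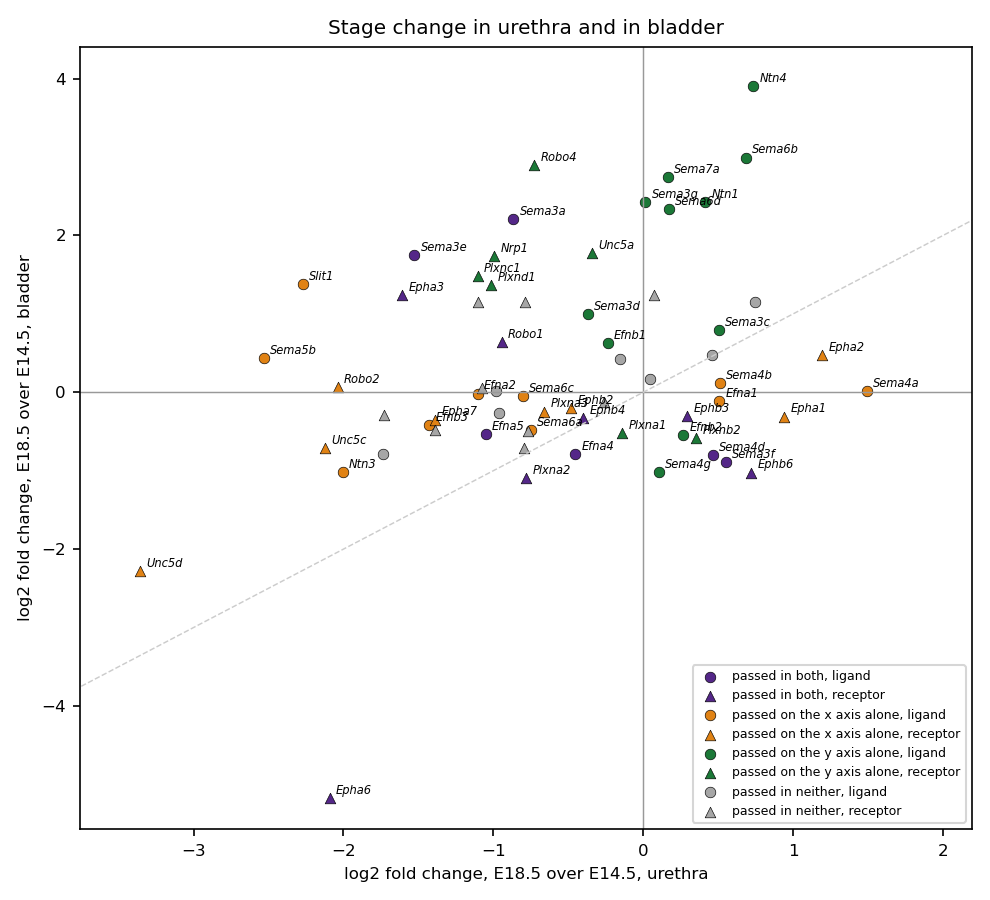
Log2 fold change of E18.5 over E14.5 in urethra (x) and in bladder (y) for the 65 members tested. Circles are ligands and triangles receptors, colour gives the tissue or tissues where the test was passed, and the dashed line marks equal values. No member rose in both tissues and 5 fell in both, and Sema3a, Sema3e, Epha3 and Robo1 lie in the upper left, up in bladder and down in urethra. How many of all genes rose or fell in both tissues was not counted. Of all genes, 19.9% rose and 20.4% fell in bladder, and 17.2% rose and 15.7% fell in urethra.

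The change with stage differed between the tissues for 29 of 65 members (44.6%), where 22.8% of 18286 genes passed the interaction test (12.1% higher and 10.6% lower). In 20 the bladder change exceeded the urethral change, and in 9 it fell short. The median difference of the log2 changes was 0.91, against −0.01 over all genes. Sema3a rose in bladder by 2.204 and fell in urethra by 0.87, a difference of 3.07 ± 0.35 (adjusted p = 0.000324). Sema3e rose by 1.75 in bladder and fell by 1.53 in urethra, a difference of 3.28 ± 0.51 (adjusted p = 0.00162). Ntn4 differed by 3.17 ± 0.53 (adjusted p = 0.0022). These 3 calls were kept in every leave-out. Epha3, Nrp1 and Plxnc1 differed by 2.85 ± 0.59, 2.73 ± 0.72 and 2.59 ± 0.73 (adjusted p = 0.00581, 0.0174 and 0.0237), and Plxnc1 was lost in 3 of 14 leave-outs. Sema5b differed by 2.97 ± 0.93 (adjusted p = 0.0368), a call lost in 8 of 14. All 3 Robo receptors tested were on the same side, with differences of 1.58 for Robo1, 2.11 for Robo2 and 3.62 for Robo4. That of Robo4 lost its call without bladder E18.5 replicate 1 or urethra E18.5 replicate 1 (adjusted p of up to 0.0539) and was 2.96 without urethra E14.5 replicate 3. Leaving out 1 library also moved Slit1 to 2.26 (bladder E18.5 replicate 2), Nrp2 to 3.03 and Sema6b to 2.90 (bladder E14.5 replicate 3), and Unc5a to 2.78 (bladder E14.5 replicate 1).

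In the opposite direction, Ephb6 fell in bladder by 1.02 and rose in urethra by 0.72, a difference of −1.74 ± 0.27 (adjusted p = 0.00134). Sema3f (−1.44 ± 0.25, adjusted p = 0.00261) and Sema4d (−1.26 ± 0.22, adjusted p = 0.00243) had the same order. Epha1 (−1.25), Sema4a (−1.47), Sema4g (−1.12), Plxnb2 (−0.94), Efnb2 (−0.81) and Ephb3 (−0.59) made up the 9. Sema4a lost its call in 12 of 14 leave-outs (adjusted p of up to 0.105). Under the pan-epithelial scaling, which moved the median of all genes to 1.36, 50 members passed, all with the larger change in bladder. Of all 18286 genes, 12819 passed in that direction and 267 in the other. With the mesenchyme score as a term, edgeR passed 0 of 65 (14 at an unadjusted p under 0.05), and no other tool was run with that term. Of the 29 calls 15 were kept in every leave-out, and the count was 17 without bladder E18.5 replicate 1, 16 without urethra E18.5 replicate 1 and 18 without urethra E18.5 replicate 2.

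**Figure D5:**
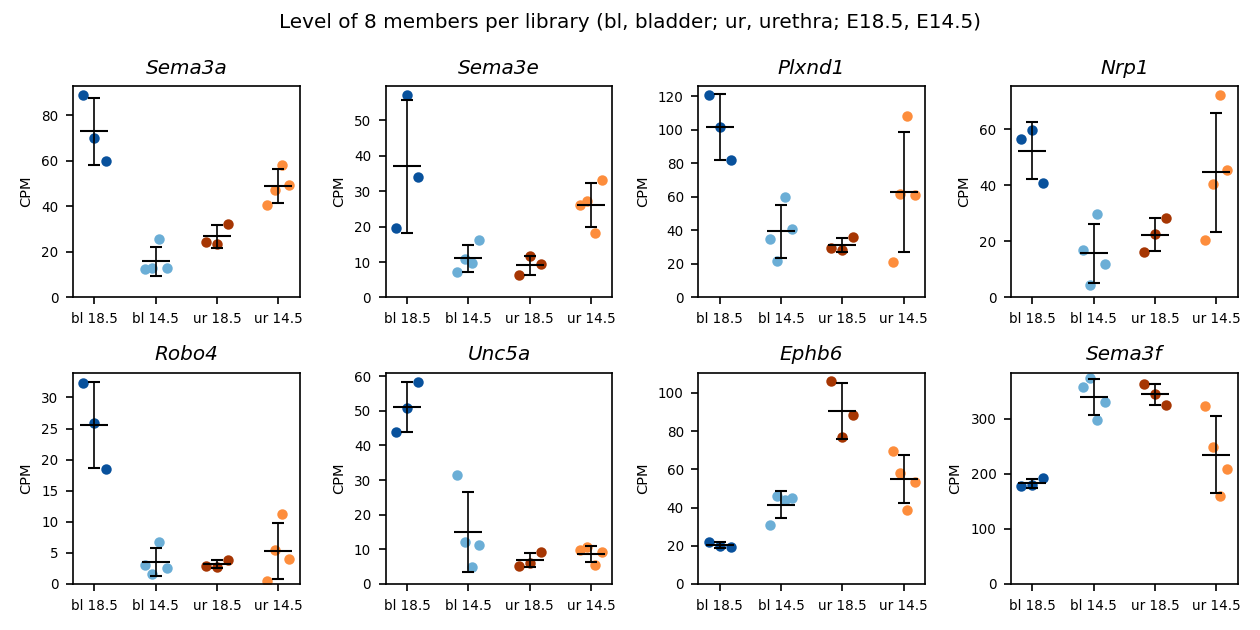
CPM of 8 members in each library (points), with the group mean (line) and SD (bars), for bladder (bl) and urethra (ur) at E18.5 and E14.5. Sema3a, Robo4 and Unc5a are highest in the 3 bladder libraries of E18.5, from 18.54 CPM up for Robo4, while Ephb6 and Sema3f are lower there than in every urethral library of E18.5.

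Other genes of these pathways, at the cell surface and inside the cell, were read from 4 lists of partners. At E14.5, 13 of 20 Slit and Robo partners were lower in bladder and 2 higher, and 11 of 16 netrin partners were lower and 1 higher. Among them were Arhgap39 (−0.63), Srgap3 (−1.0) and Enah (−0.47), which act downstream of Robo, the netrin receptors Dcc (−2.88) and Neo1 (−0.78), the neogenin ligand Rgma (−2.74), and Lrrc4 (−3.52), which binds a netrin-G. The ephrin and Eph list had 5 higher and 6 lower of 18, led by Chn2 (−1.33), Src (0.75) and Fyn (−1.37). The semaphorin and plexin list had 3 higher and 5 lower of 22, led by Mical3 (−0.57), Gipc1 (0.94) and Rnd2 (0.70). The median log2 fold changes of the ephrin, semaphorin, Slit and netrin lists were −0.28, −0.35, −0.41 and −1.61, against −0.035 over all genes. In the same order 61.1%, 36.4%, 75% and 75% of the partners passed, where 43.8% of all genes did.

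At E18.5 the ephrin and Eph list had 2 higher and 7 lower of 18, with the exchange factors Vav3 (−2.08), Vav2 (−1.22) and Kalrn (−1.37) leading. The semaphorin and plexin list had 6 higher and 4 lower of 23, led by the myeloid adaptor Tyrobp (2.05), the plexin-linked exchange factor Farp2 (−1.64) and the integrin Itga1 (2.65). The immune markers summed to 221.9 to 291.6 CPM in bladder, against 104.8 to 128.8 CPM in urethra at this stage, and their part in the Tyrobp difference was not tested. Of the Slit and Robo partners 2 were higher and 9 lower, with Flrt1 (−1.88), Flrt3 (2.19) and Srgap1 (−1.36) leading. Netrin partners had 1 higher and 4 lower of 15, led by Ntng1 (2.29), Rgma (−2.26) and Dcc (−1.19). The medians of the 4 lists were −0.20, −0.13, −0.53 and −0.50, against −0.026 over all genes. The shares that passed were 50%, 43.5%, 55% and 33.3%, where 37.9% of all genes passed. With stage in bladder, 55.6% of 18 ephrin, 65.2% of 23 semaphorin, 55% of 20 Slit and 31.2% of 16 netrin partners passed, where 40.2% of all genes did. There 4, 9, 2 and 4 rose and 6, 6, 9 and 1 fell. With stage in urethra the shares were 38.9%, 34.8%, 45% and 43.8%, where 32.9% of all genes passed. There 4, 6, 2 and 1 rose and 3, 2, 7 and 6 fell.

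Of the 68 members, 3 were too low to be tested in any comparison: Epha10, Robo3 and Ntn5, at no more than 0.31 CPM in any library. Epha6, Slit1 and Unc5d were tested at E14.5 and over the 14 libraries, but not at E18.5 alone. Members tested that passed in no comparison were Epha8, Ephb1, Sema4f, Plxna4, Plxnb3, Slit2 and Unc5b. Unc5b was well expressed among them, at 87.6 to 133 CPM in bladder at E18.5, 107 to 239 in bladder at E14.5, 87.5 to 117 in urethra at E18.5 and 96.7 to 292 in urethra at E14.5. The ranges of the 4 groups overlapped.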

How the data were processed

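Reads of poly(A)-selected, strand-marking libraries were aligned with HISAT2 2.2.1 to GRCm38 and handled with SAMtools 1.9, per the submitters' processing notes. The deposited tables hold raw counts per gene, 1 table per stage. How reads were assigned to genes (tool, use of strand, gene annotation) is not given in these sources. Members were matched by symbol, the tables were joined by gene, and no sample column was left unused. Members and lists were chosen with earlier results of these data known.

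Counts were tested with edgeR 4.0.16 (R 4.3.3; TMM, filterByExpr, robust quasi-likelihood F test) on all genes, with Benjamini-Hochberg adjusted p under 0.05. Tissues were compared within a stage on its libraries alone, and stages and their interaction with tissue in 1 fit of 14 libraries with 4 groups. CPM used TMM over the 14 libraries. P-values measure the spread between litter pools. Each SE is the size of the log2 fold change over the square root of the F statistic. It is approximate, and least so to be relied on for changes near 0. Replicates differed beyond sampling noise (chi-square per gene from 10.33 to 105.9). In each comparison up to 8 passing members per direction with at least 5 CPM in the higher group, ranked by log2 fold change, were named with full statistics. The most abundant member of each family and up to 3 partners per list with the smallest adjusted p were also named. Alternatives were DESeq2 1.42.0 and its size factors, other filters, a replicate block, the mean log2 CPM of the mesenchyme markers (mesenchyme score) as a term, scaling on 7 pan-epithelial genes and each library left out. The fits were tested on simulated data. Promoter windows came from RefSeq. A planned comparison of protein sequences was not run.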

Additional observations from a re-analysis of the deposited data

Results flagged for a closer look

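In 136 sets of libraries (each member in each of the 2 groups of 4), 10 held a library that stood apart from the others by Dixon's criterion at the 95% level, and chance gives a share of about 0.05. Of these 10, 8 were bladder libraries of E14.5. Replicate 3, with the most mesenchyme marker RNA of that group, stood apart for Sema3a at 25.44 CPM (the others at 12.35 to 12.94), for Ephb1 at 8.787 (3.071 to 3.966), for Sema4f at 6.165 (0.8067 to 1.52) and for Robo3 at 0.09201 (the others at 0). Replicate 1 was low for Sema3c at 136.1 CPM (the others at 236.7 to 247), for Efnb2 at 363.3 (453.1 to 465.6) and for Ephb6 at 30.9 (43.7 to 46.12). Replicate 2 had the only Epha10 counts of that group, at 0.05691 CPM. For Robo3 and Epha10 the library that stood apart held 2 counts. With the others at 0, the criterion flags any count, so these 2 flags carry no weight. In urethra at E14.5, replicate 1 was low for Epha7 at 82.65 CPM (the others at 144.4 to 148.3), and replicate 3 was high for Plxnb3 at 0.8829 (0.5328 to 0.5906).

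The change with stage differed between bladder and urethra for 29 members by edgeR's interaction test. The difference (bladder change minus urethra change, log2) was positive for 20. It was 3.649 for Slit1, 3.622 for Robo4, 3.276 for Sema3e, 3.171 for Ntn4, 3.07 for Sema3a, 2.968 for Sema5b, 2.846 for Epha3, 2.73 for Nrp1, 2.589 for Plxnc1, 2.581 for Sema7a, 2.383 for Plxnd1, 2.306 for Sema6b, 2.255 for Nrp2, 2.163 for Sema6d, 2.113 for Unc5a, 2.105 for Robo2, 2.013 for Ntn1, 1.582 for Robo1, 1.038 for Epha7 and 0.864 for Efnb1. It was negative for 9, at −1.744 for Ephb6, −1.473 for Sema4a, −1.441 for Sema3f, −1.265 for Sema4d, −1.248 for Epha1, −1.123 for Sema4g, −0.939 for Plxnb2, −0.81 for Efnb2 and −0.592 for Ephb3.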

How the results depend on the processing

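The counts of members that passed (38 at E14.5, 38 at E18.5, 31 with stage in bladder, 31 with stage in urethra, 29 for the interaction) stayed within 1.5 times under DESeq2 (44, 39, 35, 35 and 34), its size factors in edgeR, no filter and a filter at 1 CPM. Of the 78 named differences, all kept direction and call under DESeq2 and its size factors, 77 under the 1 CPM filter and 71 with no filter. Leaving out 1 library gave 32 to 43, 32 to 36, 22 to 34, 16 to 38 and 16 to 37 members, and kept 803 of 880 named calls. With the mesenchyme score as a term 24, 0, 9, 42 and 0 members passed (3061, 5, 485, 6876 and 52 of all genes), and the sign of 4 called members turned at E18.5 (Nrp1 −0.294, Nrp2 −0.414, Plxnc1 −0.91, Robo1 0.108), of 10 with stage in bladder (Efnb2 0.001, Sema3g −1.435, Sema6d −0.189, Robo4 −0.548, Nrp1 −1.435, Plxnc1 −1.327, Plxnd1 −0.957, Epha3 −0.854, Efnb1 −0.498, Plxna1 0.14) and of 8 in the interaction (Sema5b −0.969, Plxnc1 −0.318, Nrp1 −0.516, Robo4 −0.068, Nrp2 −0.844, Sema6d −0.436, Efnb1 −0.274, Plxnd1 −0.057). Scaling on pan-epithelial genes moved the medians of all genes to −1.015, 0.395, 0.527, −0.84 and 1.363, and 52, 26, 24, 44 and 50 members passed (11858, 7105, 5996, 10759 and 13086 of all genes). Under it Epha2 (−0.469), Sema4g (−0.215) and Plxnb2 (−0.099) turned at E14.5, Ephb4 (0.215), Ephb3 (0.235), Plxna1 (0.015) and Efna5 (0.003) with stage in bladder, Ephb6 (−0.057), Efna1 (−0.279), Sema3f (−0.2), Sema4b (−0.248), Sema4d (−0.331) and Ephb3 (−0.521) with stage in urethra, and Epha1 (0.017), Efnb2 (0.512), Sema4d (0.072), Sema4g (0.195), Plxnb2 (0.381) and Ephb3 (0.756) in the interaction. Relative to those medians they kept their side. The cause was not tested. Same-numbered bladder and urethra libraries deviated together with r of −0.104 to 0.391 at E14.5 and −0.189 to 0.138 at E18.5. The best-matching urethra library had the same number for bladder replicates 1 and 3 at E14.5 and replicate 1 at E18.5. The main tests did not take the numbers as pairs, but this check cannot exclude that same-numbered libraries came from the same litters. The replicate block gave 43 members at E14.5, 35 at E18.5 and 27 for the interaction, and the stage contrasts cannot be estimated with a litter block.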
